A study of Mus with 6 samples.

Results

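The genes described here are the regulators that drive and restrain the cell division cycle: cyclins, cyclin-dependent kinases (CDKs), CDK inhibitors, the E2F, RB and MuvB transcription regulators, and the ubiquitin ligase subunits that end each phase. They were chosen by symbol from a table of read counts, with symbols assigned by gene position, and only from stretches of rows where counts were found to match the gene label of the same row. This gave 61 genes of the 11659 in the table. RNA was sequenced from knee cartilage chondrocytes of 12-week-old C57BL/6J mice, in 3 samples labelled wild type (WT) and 3 labelled Sirt6 cKO. In the Sirt6 cKO mice, which carry floxed Sirt6 alleles, the deletion is driven by Col2a1-CreERT2, a Cre recombinase that tamoxifen activates in cells that express type II collagen. The control samples are labelled wild type, and whether those mice carried floxed alleles or received tamoxifen is not stated for this experiment. The study's methods describe male mice and first-passage cultures of chondrocytes. The study's data statement speaks of control and Sirt6 KO mice in the same numbers as the samples, but the labels do not say that each sample came from a separate animal, and otherwise the p-values measure only a spread between samples that may be technical.

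A cyclin binds and activates a CDK. Cyclin D with Cdk4 or Cdk6, followed by cyclin E with Cdk2, phosphorylates the RB family proteins, which frees E2F factors to transcribe the genes of DNA replication. Cyclins A and B then carry the cell through S phase and mitosis, where the MuvB complex, with B-Myb and Foxm1, switches on the mitotic genes, and the anaphase-promoting complex (APC/C) finally destroys the mitotic cyclins. In a resting cell the same MuvB core joins the RB relatives p107 and p130 with E2F4 and keeps these genes off. CDK inhibitors such as p27 and the INK4 proteins hold the cycle in G1. Articular chondrocytes divide rarely in the joint and re-enter the cycle when they are plated in culture. An arrest of this cycle is the defining trait of senescence, the state that the study asked about.

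Each sample held 25726958 to 30156935 counted reads. Counts were normalized with TMM factors, and the genotypes were compared with edgeR's quasi-likelihood test across all 11246 genes that passed a filter on low counts, with Benjamini-Hochberg adjustment over all of them. A gene is called higher or lower at an adjusted p under 0.05, and fold changes are given on the log2 scale as Sirt6 cKO against WT. All 61 regulators passed the filter, and the lowest count of any of them in any sample was 125. Sirt6 itself had 10273, 9963 and 10943 counted reads in the WT samples against 1056, 862 and 660 after deletion. WT replicate 1 stood apart from the other WT samples, with a correlation of log2 counts across genes of 0.969 and 0.971 with them, whereas WT replicates 2 and 3 correlated at 0.993. Its counts were relatively low for long genes among the 6615 tested genes in rows where labels matched. Against the mean of WT replicates 2 and 3, the median log2 ratio was 0.337 in the 1655 shortest of these, with up to 2511 exon bases. It was -0.287 in the 1655 longest, with at least 5902. The main counts of calls are therefore also given without this sample.

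Of 20 chondrocyte marker genes, 5 had a row where counts and labels matched. Sox9, the master regulator of the lineage, had 4917 to 5595 counts in WT and 7404 to 11059 in Sirt6 cKO samples. Comp and Ucma, matrix proteins of cartilage, were near 0 in WT, with 14 to 28 and 2 to 6 counts, and had 182 to 322 and 114 to 319 in Sirt6 cKO samples. Col11a1, a fibrillar collagen of cartilage, was higher with a fold of 16.01. Col9a3, the remaining marker, went the other way without passing, with 151, 162 and 180 reads in WT against 117, 149 and 98 in Sirt6 cKO cells (log2 fold change -0.53, edgeR adjusted p = 0.0756). Col2a1 and Acan, the defining genes of cartilage matrix, were not analysed here. The summed level of the 5 markers was 47.5 to 52.2 in WT and 89.4 to 109 in Sirt6 cKO samples, in RPKM scaled with the TMM factors (reads per kilobase of exon, adjusted for library size). Of 14 synovial fibroblast markers, 8 had such a row, with a summed level of 1405 to 1430 in WT and 4345 to 4943 in Sirt6 cKO samples in the same unit. Most of this sum was Col1a1 and Col1a2, with mean levels of 614 and 548 in WT against 1551 and 2175 in Sirt6 cKO cells. Of the 8, Dcn, Lum and Pdgfra were also higher, and Has1, Pdpn and Thy1 did not pass, with log2 fold changes of -0.26, -0.36 and 0.09. Cd68, a macrophage marker, had 6 to 52 counts in any sample, and no endothelial marker of 5 was measured in usable rows. Of 7 osteoblast markers 2 were measured, of which Spp1 was higher, and of 9 marrow and blood markers 1, Cd34, was measured and was lower. In bulk RNA, fewer cells of a kind, such as cells in cycle, and less RNA per cell cannot be told apart. The cell type markers moved with genotype beside every result below, and their part in those results was not tested.

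Cyclins A2, B1, B2 and E1, the Cdc25b and Cdc25c phosphatases, E2f1, E2f4, E2f7 and E2f8, and Mybl2 were lower in Sirt6 cKO chondrocytes, while 2 CDK inhibitors and the p130 gene Rbl2 were higher, each by less than 2-fold. Ccnd3, E2f3 and E2f5 did not pass. Of the 61 regulators, 26 were lower and 12 higher, and 23 did not pass the threshold. The 26 are 42.6% of the regulators, against 24.3% of all tested genes that were lower, and the 12 are 19.7%, against 22.5% of all tested genes that were higher. With a fold change over 2 in addition, 14 regulators were lower, which is 23.0% against 7.15% of all tested genes, and 1 was higher, which is 1.64% against 8.72%. Among the 6615 tested genes in rows where labels matched, from which the regulators come, 25.8% were lower and 24% higher, 7.57% and 8.84% with a fold over 2, and 63.7% did not overlap. The median log2 fold change was -0.30 over the 61 regulators and 0.00 over all tested genes. In 45 of the 61 (73.8%) the ranges of the 2 genotypes did not overlap, against 60.9% of all tested genes. For a single gene whose groups do not overlap, the two-sided exact permutation p is 0.1, and no smaller value is possible with 3 samples a group. Without WT replicate 1, 29 regulators were lower and 14 higher, against 27.8% and 27.5% of all tested genes, and all of the 26 and 12 were among them. With a fold over 2 these were 14 lower and 2 higher, against 6.5% and 8.41%. Without Sirt6 cKO replicate 1, 2 or 3, 6, 5 and 11 regulators were higher, beside 15.8%, 16.4% and 19.4% of all tested genes, and 22 were lower each time, beside 17.1%, 16.9% and 19.9%.

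**Figure D1:**
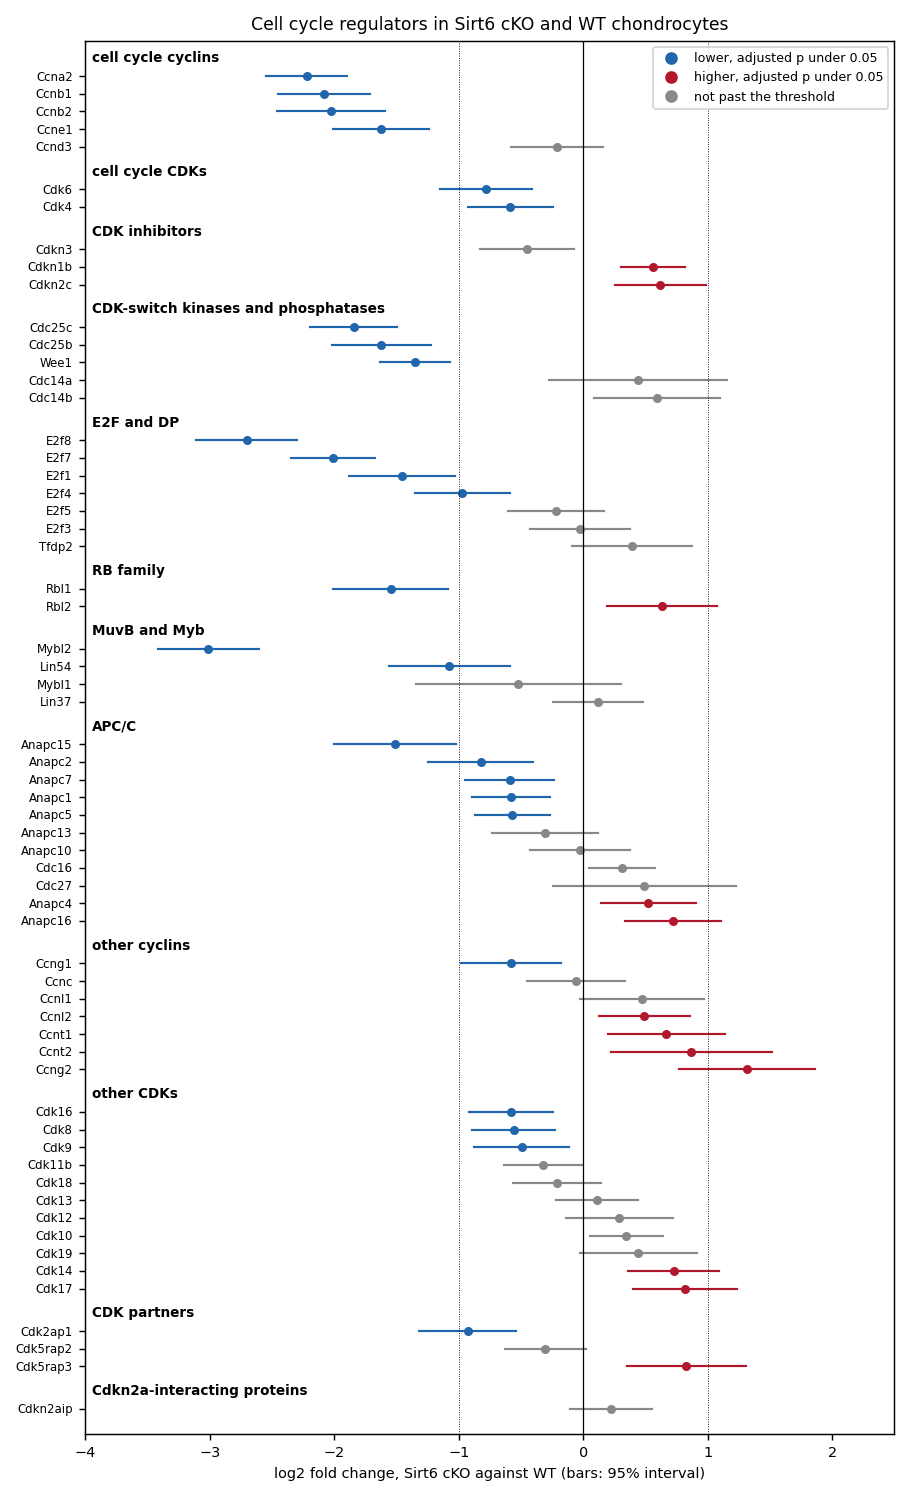
Log2 fold change of the 61 cell cycle regulators, Sirt6 cKO against WT, grouped by role; points are edgeR estimates, bars their 95% intervals (not adjusted for the number of genes), and dotted lines mark a fold of 2. The decreases past the dotted line lie among the cell cycle cyclins, the CDK-switch enzymes, E2F1, E2F7 and E2F8, Rbl1, Mybl2, Lin54 and Anapc15, and Ccng2 is the only increase past it.

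Among the cyclins that pace the cell cycle, 4 of 5 measured genes were lower and none was higher, where 24.3% of all tested genes were lower and 22.5% higher. Ccna2 encodes cyclin A2, the partner of Cdk2 and Cdk1 from S phase to early mitosis. This gene (ENSMUSG00000027715, GRCm38 chromosome 3 from 36564866 to 36572150) had 5929, 8168 and 8247 reads in WT against 1851, 1738 and 1467 in Sirt6 cKO cells. Each Sirt6 cKO sample was thus far below each WT sample, and the log2 fold change was -2.22 (SE of the log2 fold change, 0.14, edgeR adjusted p = 1.26e-05). Of its exon bases, 14.6% overlap Exosc9 on the other strand, a gene with a log2 fold change near 0 that did not pass (adjusted p = 0.817), and although the libraries were made with strand-specific kits, whether counting used strand is not stated.

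Ccnb1 and Ccnb2 encode the B-type cyclins that bring Cdk1 into mitosis. Ccnb1 (ENSMUSG00000041431, chromosome 13 from 100778650 to 100786570) had 908, 1453 and 1376 reads in WT against 312, 338 and 277 in Sirt6 cKO cells. Ccnb2 (ENSMUSG00000032218, chromosome 9 from 70407689 to 70421554) had 1014, 1023 and 971 reads in WT against 306, 275 and 210 in Sirt6 cKO cells. Both groups were well apart for each gene, with log2 fold changes of -2.08 (SE 0.16) and -2.03 (SE 0.19). Ccne1, the cyclin E1 of the G1 to S step, lies on chromosome 7 from 38097984 to 38107534 and had 2022, 1749 and 1833 reads in WT against 671, 662 and 625 in Sirt6 cKO cells. Its log2 fold change was -1.62 (SE 0.17, edgeR adjusted p = 0.000146).

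Ccnd3, a D-type cyclin that responds to growth signals, was the exception. It had 4116, 3693 and 3808 reads in WT against 3467, 3314 and 3997 in Sirt6 cKO cells, so the groups overlapped. The log2 fold change of -0.21 had a 95% interval of -0.58 to 0.16 (adjusted p = 0.307, edgeR). The level of Ccnd3 per exon length was 0.62, 0.64 and 0.63 times that of Ccne1 in the WT samples and 1.57, 1.52 and 1.94 times in the Sirt6 cKO samples. The rows labelled Ccnd1, Cdk2, Cdkn1a, Cdkn2d, Rb1, Pkmyt1 and Lin52, with 18 other rows under symbols of these families, lie where counts were not found to match the label of the same row, and they were not used. Cdk1, Ccnd2, Ccne2, Ccnf, Cdkn2a, Cdkn2b and Cdkn1c were not analysed here.

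The kinases of the D-type cyclins were lower, each by less than 2-fold. Cdk4 had 19398, 17280 and 18440 reads in WT against 13524, 13777 and 12202 in Sirt6 cKO cells, which is -0.59 on the log2 scale (SE 0.15, edgeR adjusted p = 0.0124). It had the highest level per exon length of the 61 regulators in both genotypes, 205 ± 37.2 in WT against 137 ± 8.68 in Sirt6 cKO cells (mean ± SD, n = 3 each), in TMM-scaled RPKM. Of its exon bases, 18.6% overlap Tspan31 on the other strand, which was higher with a fold of 2.03. Without Sirt6 cKO replicate 3 the adjusted p of Cdk4 was 0.0519. Cdk6 had 2113, 3114 and 3242 reads in WT against 1486, 1618 and 2071 in Sirt6 cKO cells. These ranges nearly touch in raw counts, since WT replicate 1 was the lowest of its group, and the log2 fold change was -0.78 (SE 0.16, edgeR adjusted p = 0.00486).

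**Figure D2:**
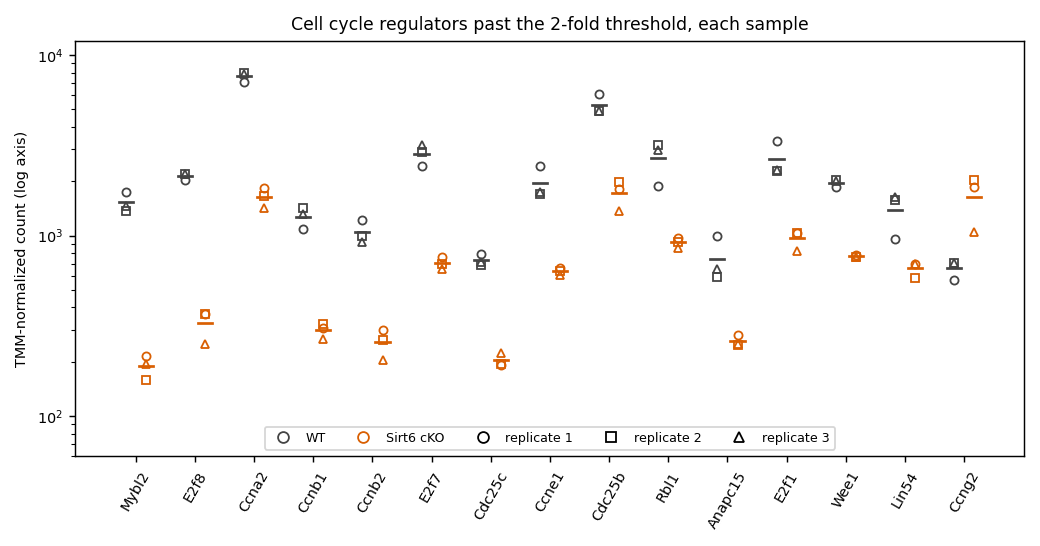
TMM-normalized counts, on a log axis, of the 15 regulators past the 2-fold threshold in each of the 3 WT and 3 Sirt6 cKO samples, ordered by fold change; short lines are group means. In all 15 genes the 2 genotypes do not overlap, and Sirt6 cKO replicate 3 is the lowest of its group for Ccng2.

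Of the CDK inhibitors, only 3 genes were measured, of which 2 were higher, where 22.5% of all tested genes were. Cdkn1b encodes p27, which binds and blocks cyclin E and cyclin A complexes with Cdk2. It lies on chromosome 6 from 134920401 to 134925513 and had 3918, 5059 and 4998 reads in WT against 7366, 7528 and 6939 in Sirt6 cKO cells. The groups stood clearly apart, and the log2 fold change of 0.56 (SE 0.11, edgeR adjusted p = 0.00448) lay between 0.54 and 0.64 over 15 alternative analyses, all of which called it higher. Cdkn2c encodes p18, an INK4 protein that binds Cdk4 and Cdk6 directly. It had 4025, 4081 and 4146 reads in WT against 7276, 7418 and 5429 in Sirt6 cKO cells, with a log2 fold change of 0.62 (SE 0.16, edgeR adjusted p = 0.0133). Sirt6 cKO replicate 3 was the closest to WT, and the adjusted p was 0.0642 if Sirt6 cKO replicate 1 was left out and 0.0577 if replicate 2 was. Cdkn3, which despite its symbol encodes a phosphatase that acts on CDKs and is itself made mostly in dividing cells, had 537, 498 and 545 reads in WT against 390, 388 and 460 in Sirt6 cKO cells. Its log2 fold change of -0.45 did not pass (adjusted p = 0.0529, edgeR).

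Cdkn2c and Cdk4, an inhibitor and its target, moved in opposite directions. The level of Cdkn2c per exon length was 0.25, 0.29 and 0.27 times that of Cdk4 in the WT samples and 0.65, 0.65 and 0.54 times in the Sirt6 cKO samples. The level of Cdkn1b was 1.13, 1.69 and 1.59 times that of Ccne1 in WT and 6.42, 6.65 and 6.49 times in Sirt6 cKO samples. The lowest of the Sirt6 cKO ratios was above the highest of the WT ratios in both pairs. This follows from the single genes, whose groups did not overlap and which moved in opposite directions. All pairs of genes whose ratios are given here were chosen after their values were seen, from 14 computed, and are given without a test. In other pairs the genotypes overlapped: Ccna2 was 7.85, 6.75 and 7.20 times Ccnb1 in WT against 7.13, 6.18 and 6.36 times in Sirt6 cKO cells, and Cdk4 was 10.55, 6.38 and 6.54 times Cdk6 in WT against 10.46, 9.79 and 6.77 times.

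Of the phosphatases and kinases that act on CDKs or oppose them, 5 were measured in usable rows, of which Cdc25b, Cdc25c and Wee1 were lower, where 24.3% of all tested genes were, and Cdc14a and Cdc14b did not pass. Cdc25c and Cdc25b encode phosphatases that release the block on Cdk1, and Wee1 encodes the kinase that imposes it. Cdc25c had 665, 706 and 755 reads in WT against 196, 204 and 231 in Sirt6 cKO cells, which is -1.84 on the log2 scale (SE 0.15). Cdc25b (chromosome 2 from 131186949 to 131198497) had 5069, 5011 and 5172 reads in WT against 1847, 2063 and 1405 in Sirt6 cKO cells, which is -1.62 on the log2 scale (SE 0.17). Wee1 (chromosome 7 from 110122350 to 110142112) had 1557, 2077 and 2106 reads in WT against 796, 795 and 786 in Sirt6 cKO cells, which is -1.35 on the log2 scale (SE 0.12, edgeR adjusted p = 7.39e-05). The Sirt6 cKO samples differed little among themselves for Wee1, at 770 ± 12.8 (SD, n = 3) normalized counts. The level of Cdc25b per exon length was 1.70, 1.26 and 1.28 times that of Wee1 in WT and 1.21, 1.35 and 0.93 times in Sirt6 cKO samples, and these ratios overlapped. Cdc14a and Cdc14b, phosphatases that oppose CDKs, had log2 fold changes of 0.44 and 0.60 and did not pass (adjusted p = 0.28 and 0.054, edgeR). Cdc14b passed with the replicate number as a block, with an adjusted p of 0.0139. WT replicate 1 was the lowest sample for both, and without it the log2 fold changes were 0.12 and 0.39 (adjusted p = 0.535 and 0.0573).

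Among the E2F factors and their DP partners, 4 of 7 were lower and none was higher, against 24.3% and 22.5% of all tested genes. E2f8 and E2f7 encode the atypical E2F proteins, which bind DNA without a DP partner and repress E2F targets late in S phase. E2f8 (ENSMUSG00000046179, chromosome 7 from 48866429 to 48881596) had 1702, 2259 and 2299 reads in WT against 374, 382 and 259 in Sirt6 cKO cells. E2f7 (ENSMUSG00000020185, chromosome 10 from 110745439 to 110787384) had 2041, 2978 and 3337 reads in WT against 772, 729 and 675 in Sirt6 cKO cells. E2f8 was 6.52-fold and E2f7 4.03-fold lower in Sirt6 cKO cells, with log2 fold changes of -2.70 (SE 0.18) and -2.01 (SE 0.15). E2f1, the classic activator of replication genes, lies on chromosome 2 from 154559407 to 154569892 and had 2786, 2335 and 2441 reads in WT against 1046, 1086 and 846 in Sirt6 cKO cells. Its log2 fold change was -1.45 (SE 0.19, edgeR adjusted p = 0.000473), and it was -1.25 without WT replicate 1, the highest of the WT samples.

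E2f4, the main repressor E2F of resting cells, was lower by just under 2-fold. It had 4621, 4138 and 4683 reads in WT against 2226, 2263 and 2867 in Sirt6 cKO cells, which is -0.97 on the log2 scale (SE 0.17, edgeR adjusted p = 0.00201). E2f3, a second activator, had 1000, 1774 and 1883 reads in WT against 1429, 1578 and 1770 in Sirt6 cKO cells, and the groups overlapped. Its log2 fold change was -0.02 with a 95% interval of -0.43 to 0.38. E2f5, a repressor, and Tfdp2, a DP partner, did not pass, with intervals of -0.61 to 0.17 and -0.09 to 0.87. Per exon length, E2f4 had the highest level of the E2F genes in each genotype, 81.5 ± 13.4 in WT against 41.5 ± 6.11 in Sirt6 cKO cells (mean ± SD, n = 3 each). In WT it was followed by E2f1 at 29.1 ± 6.56 (SD, n = 3), and in Sirt6 cKO cells by E2f3 at 11.2 ± 1.15 and E2f1 at 10.6 ± 1.36 (SD, n = 3), which do not differ beyond their spread.

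The 2 measured RB relatives changed in opposite directions. Rbl1 encodes p107, which is made in cycling cells, and Rbl2 encodes p130, which accumulates in resting cells. Rbl1 (ENSMUSG00000027641, chromosome 2 from 157145893 to 157204534) had 1568, 3248 and 3143 reads in WT against 980, 968 and 882 in Sirt6 cKO cells, which is -1.55 on the log2 scale (SE 0.20, edgeR adjusted p = 0.000505). Rbl2 (ENSMUSG00000031666, chromosome 8 from 91070057 to 91123844) had 542, 906 and 827 reads in WT against 1330, 1442 and 931 in Sirt6 cKO cells, which is 0.63 on the log2 scale (SE 0.20, edgeR adjusted p = 0.027). Sirt6 cKO replicate 3 lay close to the highest WT sample for Rbl2, and the adjusted p was 0.0589 without WT replicate 3, 0.0946 without Sirt6 cKO replicate 1 and 0.106 without Sirt6 cKO replicate 2. Of the exon bases of Rbl2, 10% overlap Aktip on the other strand, which was higher with a fold of 1.81. The level of Rbl2 per exon length was 0.30, 0.24 and 0.23 times that of Rbl1 in the WT samples and 1.17, 1.28 and 0.91 times in the Sirt6 cKO samples.

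**Figure D3:**
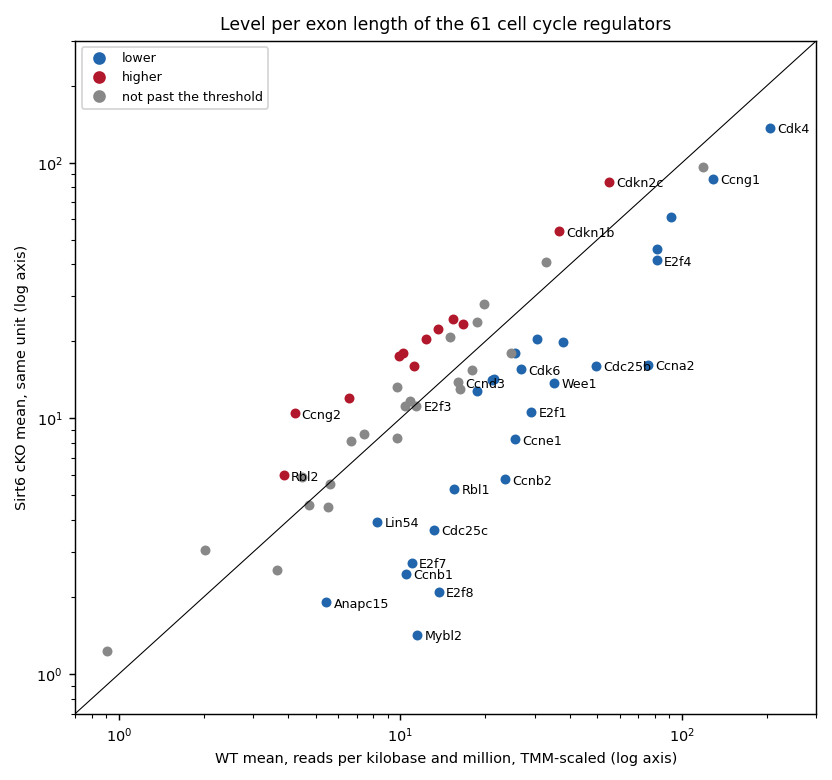
Mean level per exon length of the 61 regulators in WT (x axis) and Sirt6 cKO (y axis) samples, both on log axes in TMM-scaled RPKM; points below the diagonal line were lower in Sirt6 cKO cells. Cdk4 has the highest level in both genotypes, and Mybl2 and E2f8 lie farthest below the line.

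Mybl2 had the largest decrease of the 61 regulators. It encodes B-Myb, an E2F target that joins the MuvB core to start transcription of the mitotic genes. Mybl2 (ENSMUSG00000017861, chromosome 2 from 163054687 to 163084688) had 1465, 1411 and 1534 reads in WT against 219, 166 and 200 in Sirt6 cKO cells. It was 8.06-fold lower, with a log2 fold change of -3.01 (SE 0.18, edgeR adjusted p = 9.35e-06) that stayed between -3.11 and -2.90 over the 15 alternatives. Lin54, the DNA-binding subunit of the MuvB core, had 797, 1609 and 1724 reads in WT against 706, 609 and 719 in Sirt6 cKO cells. Its log2 fold change was -1.07 (SE 0.21, edgeR adjusted p = 0.00389), and -1.28 without WT replicate 1. Lin37, the subunit needed for repression, had 400, 397 and 447 reads in WT against 477, 538 and 431 in Sirt6 cKO cells, and its log2 fold change of 0.12 had an interval of -0.24 to 0.48. The level of Lin37 per exon length was 2.10, 1.03 and 1.09 times that of Lin54 in WT and 2.83, 3.70 and 2.51 times in Sirt6 cKO samples. Mybl1, the relative of B-Myb that is best known from the testis, had 206, 723 and 778 reads in WT against 432, 459 and 325 in Sirt6 cKO cells. It did not pass (log2 fold change -0.52, adjusted p = 0.263, edgeR), but without WT replicate 1, which held far fewer counts than its partners, the log2 fold change was -0.88 with an adjusted p of 0.00214.

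Of the 11 measured subunits of the APC/C, 5 were lower, 2 were higher and 4 did not pass, where 24.3% of all tested genes were lower and 22.5% higher. Anapc15, a small subunit that promotes turnover of the spindle checkpoint complex, had 829, 601 and 686 reads in WT against 287, 259 and 258 in Sirt6 cKO cells, which is -1.51 on the log2 scale (SE 0.22, edgeR adjusted p = 0.000818). The catalytic cullin subunit Anapc2 had 8346, 7549 and 7265 reads in WT against 4996, 5282 and 3821 in Sirt6 cKO cells, a log2 fold change of -0.82. Anapc1, Anapc5 and Anapc7, scaffold and arm subunits, were lower with log2 fold changes of -0.58, -0.57 and -0.59. Anapc7 missed the threshold without Sirt6 cKO replicate 2 (adjusted p = 0.0577) and without Sirt6 cKO replicate 3 (adjusted p = 0.0581).

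Anapc16 had 1910, 1747 and 1831 reads in WT against 3294, 2752 and 3669 in Sirt6 cKO cells and was higher by 0.72 on the log2 scale (SE 0.17). Anapc4 was higher by 0.52 (adjusted p = 0.031, edgeR), a call that was lost without WT replicate 3 and without Sirt6 cKO replicate 1 or 2, at adjusted p of 0.0546 to 0.104. Cdc16 and Cdc27, subunits of the arm that binds the activators, had log2 fold changes of 0.31 and 0.49 and did not pass (edgeR adjusted p = 0.0566 and 0.239). Cdc16 was called higher in 6 of the 15 alternatives, among them without WT replicate 1, at 0.34 (edgeR adjusted p = 0.00872). Cdc27 had 1419 counts in WT replicate 1 against 4721 and 4615 in WT replicates 2 and 3, and its log2 fold change was 0.16 without the first. With the replicate number as a block it passed, at 0.61 and an adjusted p of 0.0419.

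**Figure D4:**
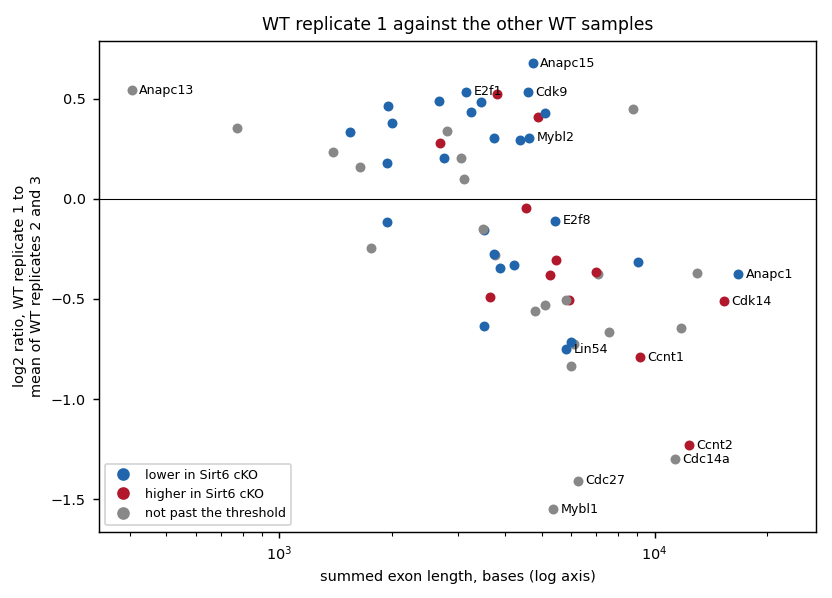
Log2 ratio of the normalized count in WT replicate 1 to the mean of WT replicates 2 and 3 (y axis) against summed exon length in bases (x axis, log) for the 61 regulators, coloured by the comparison of genotypes. Ratios run from 0.677 for Anapc15 to -1.549 for Mybl1, with lower ratios for longer genes.

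Across the 61 regulators, the log2 ratio of WT replicate 1 to the other WT samples had a Spearman's rho of -0.635 with exon length, and the fold change between genotypes had a rho of 0.335 with it. Over the 6615 tested genes in rows where labels matched, these were -0.472 and 0.186. Genes of 1 sample share a library and are not independent, so no p is given. The part of this trend in the fold changes was not tested, and leaving out WT replicate 1 ended no call among the 38.

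The other cyclins and CDKs include regulators of transcription and signaling, and the atypical cyclins Ccng1 and Ccng2. Of these 7 other cyclins, 4 were higher and 1 lower, where 22.5% and 24.3% of all tested genes were. Ccng2, an atypical cyclin known to rise in cells that stop dividing, was the only regulator higher by over 2-fold. It lies on chromosome 5 from 93267257 to 93276231 and had 477, 727 and 738 reads in WT against 1887, 2110 and 1081 in Sirt6 cKO cells, which is 1.31 on the log2 scale (SE 0.24, edgeR adjusted p = 0.00261). Its relative Ccng1, a p53 target, had 7990, 15172 and 15607 reads in WT against 8760, 9274 and 8951 in Sirt6 cKO cells. In raw counts WT replicate 1 lies below the Sirt6 cKO samples. Its smaller library and its TMM factor of 0.9358 together put it above them after normalization. Ccng1 was called lower (log2 fold change -0.58, adjusted p = 0.0249, edgeR), and 6 of the 15 alternatives lost this call, among them leaving out any sample but WT replicate 1 (adjusted p = 0.0722 to 0.0927).

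Ccnt1 and Ccnt2 are the cyclins of P-TEFb, the kinase that releases paused RNA polymerase II, and Cdk9 is its catalytic subunit. Ccnt1 had 2281, 4712 and 5076 reads in WT against 6261, 6734 and 6875 in Sirt6 cKO cells, and Ccnt2 had 1028, 2999 and 2980 in WT against 4135, 4495 and 4529 in Sirt6 cKO cells. Cdk9 had 3552, 3008 and 3091 reads in WT against 2520, 2399 and 2475 in Sirt6 cKO cells. The cyclins were higher by 0.67 and 0.87 and the kinase fell by 0.49 on the log2 scale (adjusted p = 0.027, 0.0338 and 0.0391, edgeR). WT replicate 1 was the lowest sample for both cyclins and the highest for the kinase, and without it the log2 fold changes were 0.45, 0.56 and -0.29, with adjusted p of 0.00265, 0.000851 and 0.019. All of these calls were lost when any single Sirt6 cKO sample was left out, with adjusted p of 0.0615 to 0.0731 for Ccnt1, 0.0669 to 0.091 for Ccnt2 and 0.0957 to 0.12 for Cdk9. Ccnl2, a cyclin of splicing kinases, was also higher, at 0.49, a call lost without WT replicate 3 and without Sirt6 cKO replicate 1 or 2 (adjusted p = 0.0661, 0.0956 and 0.127), and Ccnl1 and Ccnc, at 0.47 and -0.06, did not pass. Ccnl1 passed with the replicate number as a block (adjusted p = 0.0352), and without WT replicate 1 its log2 fold change was 0.24 (adjusted p = 0.0759).

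Of 11 CDKs outside the core cycle, 2 were higher, 3 lower and 6 did not pass, numbers close to those shares of all tested genes (22.5% higher and 24.3% lower). Cdk14 and Cdk17, kinases that pair with membrane-bound or less known cyclins, were higher by 0.73 and 0.82 on the log2 scale. Cdk14 had 3548, 6308 and 6249 reads in WT against 8892, 9056 and 9922 in Sirt6 cKO cells. Cdk16 and Cdk8, the latter a Mediator kinase, were lower with Cdk9, with log2 fold changes of -0.58 and -0.56. Cdk16 missed the threshold without Sirt6 cKO replicate 1 (edgeR adjusted p = 0.0508). Cdk8 missed it without Sirt6 cKO replicate 1 or 2 (edgeR adjusted p = 0.0667 and 0.063) and without WT replicate 2 or 3 (edgeR adjusted p = 0.0546 and 0.0565). The remaining 6, Cdk10, Cdk11b, Cdk12, Cdk13, Cdk18 and Cdk19, lay between -0.32 and 0.44. Without WT replicate 1, Cdk10 and Cdk11b passed, at 0.40 and -0.41 (edgeR adjusted p = 0.0115 and 0.00796). The CDK-associated proteins were mixed: Cdk2ap1, which binds Cdk2, was lower at -0.93 (adjusted p = 0.00264, edgeR), Cdk5rap3 was higher at 0.83 (adjusted p = 0.0521 without Sirt6 cKO replicate 2), and Cdk5rap2, a centrosome protein, did not pass at -0.30. Cdkn2aip, whose product binds the Arf protein, had a log2 fold change of 0.22 and did not pass either. Without WT replicate 1 Cdk5rap2 passed, at -0.42 (edgeR adjusted p = 0.0039).

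Genes known as targets of E2F and MuvB were lower with few exceptions, in lists chosen by role with earlier results of these data known. A list of 40 replication genes known as E2F targets had 20 in usable rows, and 19 of these were lower, where 25.8% of all tested genes in usable rows were, and 1 was higher, with a median log2 fold change of -2.68. Of the 20, 17 were lower by over 2-fold, where 7.57% of all tested genes in usable rows were. Mcm5, a subunit of the replicative helicase, had 15135, 11721 and 12552 reads in WT against 1113, 1210 and 591 in Sirt6 cKO cells. Cdc6, which loads that helicase, had 2554, 2627 and 2787 reads in WT against 318, 254 and 239 in Sirt6 cKO cells. Uhrf1, which maintains DNA methylation in S phase, was the gene that was higher, with 640, 648 and 719 reads in WT against 1186, 1136 and 1105 in Sirt6 cKO cells. A list of 40 MuvB and Foxm1 targets of G2 phase and mitosis had 16 in usable rows, of which 15 were lower, each by over 2-fold, with a median of -1.90. Cdc20, which activates the APC/C, fell by 2.42 and Aurka, a mitotic kinase, fell by 2.34 on the log2 scale. Cenpe was the gene that did not pass (log2 fold change -1.10, edgeR adjusted p = 0.0547). With the replicate number as a block it passed, at -0.90 on the log2 scale (edgeR adjusted p = 0.0118), which made 16 of 16 lower. Without WT replicate 1 the numbers were 19 of 20 and 16 of 16 lower.

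**Figure D5:**
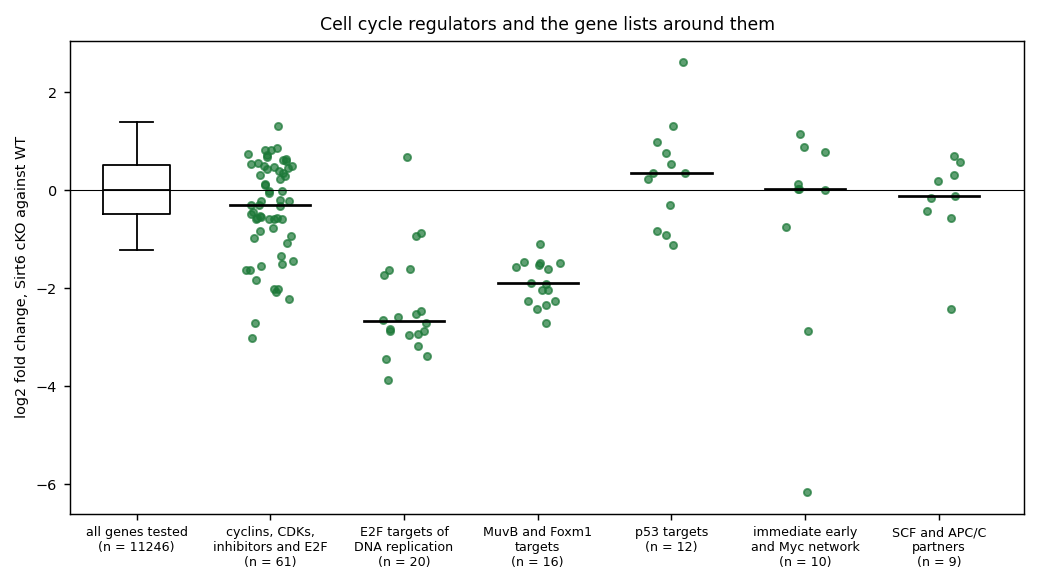
Log2 fold change, Sirt6 cKO against WT, of all 11246 tested genes (box: quartiles, whiskers: percentiles 5 and 95), of the 61 regulators and of 5 lists of related genes in rows where labels match (points: genes, lines: medians). The E2F targets and the MuvB and Foxm1 targets have medians of -2.68 and -1.90, and the other lists have medians between -0.13 and 0.35.

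The other lists had calls in both directions and are small, and 24% of all tested genes in usable rows were higher and 25.8% lower. Of 12 measured p53 targets, 4 were higher, 3 lower and 5 did not pass. With the replicate number as a block 5 were higher, since Ddb2, a DNA damage recognition gene, then passed (log2 fold change 0.52, edgeR adjusted p = 0.0462, against 0.0669 without the block). Gadd45a, a stress gene whose product inhibits Cdk1, had 702, 766 and 779 reads in WT against 4568, 3135 and 6907 in Sirt6 cKO cells, and Mdm2 did not pass (log2 fold change 0.35, adjusted p = 0.197, edgeR). Of 10 immediate early and Myc network genes, 3 were higher, 2 lower and 5 did not pass. The 2 lower genes were Mycn, with 182, 187 and 193 reads in WT against 2, 6 and 0 in Sirt6 cKO cells, and Id1, which fell by 2.87 on the log2 scale. Of 9 ubiquitin ligase partners outside the 61, Fbxw7, which targets cyclin E for destruction, and Ube2d1 were higher, Cdc20 and Fzr1, the 2 activators of the APC/C, were lower, and 5 did not pass.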

How the data were processed

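The authors deposited raw read counts per Ensembl gene for 6 samples, with exon positions and summed exon length. Per the labels, the processing notes name cutadapt, HISAT2 2.0.5, StringTie and, for these mouse samples, a human build; counter and strand setting are not given in the sources used here. Exon positions were matched to RefSeq genes of GRCm38.p6 (at least 0.5 of the joint span), which named 10609 of 11659 rows. Members were taken from 6621 rows, set by ranges of gene identifiers, in which exon length correlated with the count of the same row (Spearman's rho 0.25 to 0.303) and hardly with rows up to 6 away. In rows 1769 to 3210 the rho was -0.002 in the same row and 0.266 with the next row down. In rows 8065 to 11659 it was 0.372 in the same row but 0.36 to 0.503 at every shift of up to 6 rows, so this check could not place the counts there, and these rows were not used for members.

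Counts were fitted with edgeR 4.0.16 in R 4.3.3 (TMM, filterByExpr, glmQLFit, glmQLFTest, genotype as the only term), which was tested on simulated data. The standard error is the log2 fold change divided by the root of F. Per-sample values are given for a list of 49 regulators, of which 26 are members, and for others past the 2-fold threshold, and in addition for members chosen after their values were seen. The members and lists were chosen with earlier results of these data known. Alternatives were DESeq2 1.42.0, limma-voom (limma 3.58.1), 3 other normalizations, 2 other filters, glmTreat, a replicate block, usable rows only, and leaving out each sample.

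Deviations from the group means correlated at 0.262, 0.104 and 0.136 between same-numbered samples. Samples with different numbers were not compared in this way, and the labels do not say that the numbers pair the samples. Whether they are pairs is therefore not known. The reported fit includes no pairing, and the value with the replicate number as a block is given where it changes a call. No depth limit applies to the members, whose counts were all at least 125. The planned search of promoter motifs and comparison of proteins were not run, since no sequences were used here.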

Additional observations from a re-analysis of the deposited data

How the results depend on the processing

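The 14 decreases over 2-fold were called lower in each of the 15 alternatives that gave an adjusted p for single genes, but not always by over 2-fold: 13 were with upper-quartile factors, and Lin54 reached -0.93 without WT replicate 3. Of the 38 calls, 13 were lost in at least 1 alternative, 6 lower (Cdk4, Cdk8, Cdk9, Cdk16, Ccng1 and Anapc7) and 7 higher (Ccnt1, Ccnt2, Ccnl2, Cdkn2c, Rbl2, Anapc4 and Cdk5rap3), and 10 of the 23 genes that did not pass were called in at least 1. With the replicate number as a block, 26 regulators were lower (42.6%) and 15 higher (24.6%), beside 25.5% and 25.6% of all tested genes, the added genes being Cdc27, Ccnl1 and Cdc14b, and the block changed no other call among the 61 and, in the other lists, those of Cenpe and Ddb2 only. Leaving out 1 sample gave 5 to 14 regulators higher (8.2% to 23.0%), beside 15.8% to 27.5% of all tested genes. It gave 22 to 29 lower (36.1% to 47.5%), beside 16.9% to 27.8%. Of these, 13 to 15 were lower by over 2-fold (21.3% to 24.6% of the regulators), beside 6.5% to 8.05% of all tested genes. With glmTreat, which tests against a fold of 2, 11 regulators were lower (18.0%) and 0 higher. Of all 11246 tested genes, 340 were lower and 412 higher. In usable rows alone, with fewer genes tested, 1736 genes were lower and 1623 higher, 499 and 590 by over 2-fold. Upper-quartile factors moved the share of 2-fold calls that were higher from 55% to 63.5%.

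Genes near 0 changed sign without passing. The log2 fold change of E2f3 was 0.0511 with upper-quartile factors and 0.0185 with total counts alone, and -0.19 to 0.0907 with 1 sample left out. Anapc10 was at 0.0488 and 0.0303, and -0.12 to 0.0947. Ccnc was at 0.0218 with upper-quartile factors and -0.21 to 0.0698 with 1 sample left out, and Cdk13 was at -0.0022 to 0.20. The causes were not tested. The doubt over labels left 25 rows under symbols of these families unused.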
